A study of Rattus norvegicus with 16 samples.

Results

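The proteasome is the particle that degrades proteins marked with ubiquitin. The genes described here were chosen by name for its constitutive form, and most of them, but not all, encode its subunits. They were taken from the expression table by name: every row whose annotation gives exactly 1 gene symbol beginning with Psma, Psmb, Psmc, Psmd or Psme, without the immunoproteasome genes Psmb8, Psmb9 and Psmb10. This gave 48 rows, and with the row of the highest mean kept for each gene, 41 genes of the 14324 genes that have a row of their own. The samples are 16 Affymetrix arrays of the hippocampus and the cortex of male Sprague-Dawley rats, 15 months old at the start, in 8 groups of 2 arrays. Curcumin-treated rats ate chow with curcumin added and control rats ate the plain chow, for 12 weeks or for 6 weeks, and each array holds RNA pooled from 3 rats of 1 group, with 6 rats in a group. Both tissues came from the same rats, so hippocampal and cortical arrays are not independent. Rats of the 12-week groups had therefore also grown older by the longer feeding, and no array measures animals before feeding. By their titles the 2 arrays are biological replicates, but the design text describes hybridising every RNA pool in duplicate. The spread within a group, which is all that the p-values cover, may therefore be technical. Values are log2 signals. A difference is a difference of group means on the log2 scale with its standard error (SE), tested with limma over all 27342 rows and called where the Benjamini-Hochberg adjusted p was under 0.05. Tissue was measured in bulk, so fewer cells of a type and less RNA per cell cannot be told apart.

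The proteasome has a hollow core, the 20S particle, built from outer rings of alpha subunits and inner rings of beta subunits, and a cap, the 19S particle, that binds ubiquitinated proteins, unfolds them with a ring of ATPases and feeds them into the core. Only 3 of the constitutive beta subunits cut peptide bonds: Psmb6 (caspase-like activity), Psmb7 (trypsin-like) and Psmb5 (chymotrypsin-like). In the immunoproteasome, which immune signals induce, Psmb9, Psmb10 and Psmb8 take their places. Neurons depend on the particle for the turnover of synaptic and of misfolded proteins, and its genes are textbook targets of Nfe2l1, a transcription factor that binds antioxidant response elements, as its relative Nfe2l2 does.

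By part of the particle the 41 genes fall into 6 alpha subunits, 8 beta subunits, 6 ATPases of the base, 3 other base subunits, 8 subunits of the lid, 3 chaperones of base assembly and 4 activators. The other 3 match by name: Psma3l, a near copy of the alpha subunit Psma3, Psme3ip1, which is named as an interactor of the activator Psme3, and Psmc3ip, a protein of meiotic recombination. Psma3 itself was read only on a row it shares with Psma3l, and the alpha subunit Psma8, known from the testis, has no row under its own symbol. Psmb11, a catalytic subunit restricted to the thymus, is a member by the rule, and its 16 values lay between 5.25 and 5.59 with no comparison called. All 41 genes passed the alternative filter that drops the 25% of rows with the lowest mean.

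The bases before the start of 4 genes are printed here because these are the genes of the beta ring that were called between 12 and 6 weeks in both tissues, as described below. They are RefSeq sequences of the rat assembly GRCr8, 5′ to 3′, of 250 bases each and of 214 for Psmb6, whose gene record begins before the start that the promoter table uses. Capitals mark matches to TGACNNNGC on either strand, the core of the antioxidant response element. Psmb5 lies at chr15:32047380-32047629 (minus strand), Psmb6 at chr10:55737638-55737851 (plus strand), Psmb4 at chr2:185134562-185134811 (minus strand) and Psmb7 at chr3:42827471-42827720 (minus strand).
Psmb5: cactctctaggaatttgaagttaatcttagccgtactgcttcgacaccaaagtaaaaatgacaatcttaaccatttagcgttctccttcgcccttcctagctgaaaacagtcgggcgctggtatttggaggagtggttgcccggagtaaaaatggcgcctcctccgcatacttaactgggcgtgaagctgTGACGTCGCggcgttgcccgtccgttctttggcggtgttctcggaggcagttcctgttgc
Psmb6: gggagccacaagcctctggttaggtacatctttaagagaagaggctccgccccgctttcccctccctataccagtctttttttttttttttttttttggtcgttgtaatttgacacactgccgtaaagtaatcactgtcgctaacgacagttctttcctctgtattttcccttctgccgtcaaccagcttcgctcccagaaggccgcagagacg
Psmb4: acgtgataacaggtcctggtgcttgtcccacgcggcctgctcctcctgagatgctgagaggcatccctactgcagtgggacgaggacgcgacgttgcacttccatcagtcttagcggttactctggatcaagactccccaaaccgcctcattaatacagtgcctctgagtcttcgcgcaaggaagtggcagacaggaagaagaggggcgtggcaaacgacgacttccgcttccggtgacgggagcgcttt
Psmb7: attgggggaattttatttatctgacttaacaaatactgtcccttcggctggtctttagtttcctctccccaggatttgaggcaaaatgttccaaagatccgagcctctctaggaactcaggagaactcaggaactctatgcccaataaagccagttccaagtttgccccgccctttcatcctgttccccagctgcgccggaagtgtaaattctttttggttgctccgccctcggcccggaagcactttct
The match begins 60 bases before the start in Psmb5. That of Psmb6 begins 24 bases before the start of the promoter table but lies inside the gene record, so the printed stretch does not hold it. These letters do not occur in the windows of Psmb4 and Psmb7. Windows of 300 bases, 250 before the start and 50 after it, were found for 35 of the 41 genes, and for 14 of these the gene record begins before the start used. Of the 35, 7 held the motif, which were Psmb2, Psmb5, Psmb6, Psmd1, Psmd3, Psmd9 and Psme4, beside 4038 of the 33469 windows of all genes (12.1%). A match describes the sequence and is no evidence of binding.

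The arrays of a group correlated at 0.9899 to 0.9961 over all rows, array medians lay between 6.35 and 6.44, and the SD of the difference between both arrays of a group over the 41 genes was 0.077 to 0.147. Prox1 and C1ql2, markers of dentate granule cells, were higher in hippocampus than in cortex on all arrays, by 1.57 (SE 0.09, limma adjusted p = 2.79e-06) and 1.84 (SE 0.08, adjusted p = 7.97e-07). The third marker of these cells, Calb1, was not called (difference -0.186, SE 0.176, adjusted p = 0.658), with values of 8.26 to 9.02 in hippocampus and of 7.68 to 9.15 in cortex. Some arrays stood apart in the RNA of other cell types. In hippocampus after 6 weeks, the median of 9 choroid plexus markers was 7.53 on curcumin array 2 and 8.42 on control array 2, beside 5.45 to 5.81 on the other 14 arrays, and results that rest on these arrays are given with and without them. In cortex after 6 weeks, the median of 10 neuron markers was 10.39 and 10.53 on the curcumin arrays and 10.24 and 10.03 on the control arrays, and that of 9 oligodendrocyte markers was 8.52 and 9.49 on the curcumin arrays and 10.12 and 9.53 on the control arrays.

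**Figure D1:**
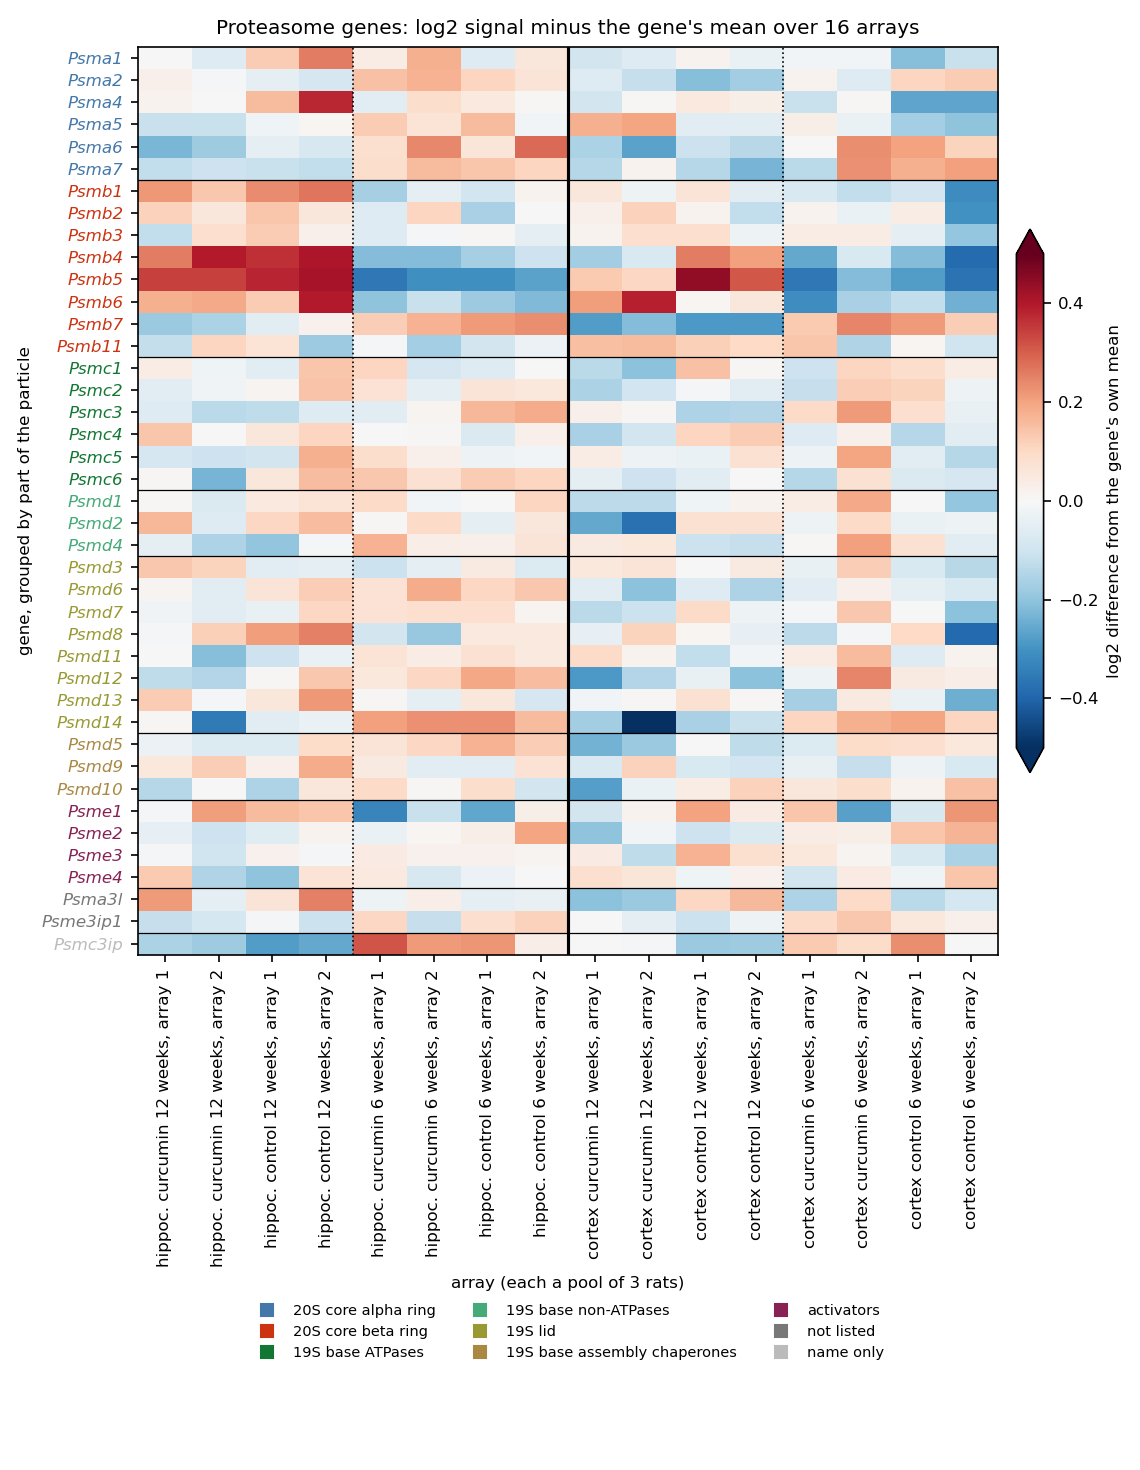
Each cell gives the log2 signal of a gene (rows, grouped by part of the particle) on an array (columns) minus the mean of that gene over all 16 arrays, with colours cut at 0.5 in either direction. Psmb4, Psmb5 and Psmb6 of the beta ring are red on most 12-week arrays and blue on the 6-week arrays, and Psmb7 is blue on most 12-week arrays and red on the 6-week arrays.

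The question of the study was what curcumin in the diet does in the aged brain. For the proteasome genes the differences between curcumin and control were small. The largest was 0.391 on the log2 scale, which is less than 1.5-fold, and the fold rule that the study's methods describe (1.5-fold or more, 0.66-fold or less) selected 0 of the 41 genes in each of the 4 comparisons of diet. Among all rows it selected as higher 0.110% in hippocampus and 0.395% in cortex after 12 weeks and 0.0585% and 0.486% after 6 weeks, and as lower 0.121% and 0.432% after 12 weeks and 0.0622% and 0.761% after 6 weeks. In cortex after 12 weeks 2 members passed the test, and both were lower on curcumin: Psmd2, a scaffold of the cap's base that receives ubiquitin shuttles, and Psmb4, a non-catalytic subunit of the beta ring. The 2 members are 4.88% of the 41, beside 1.59% of all rows called lower and 3.24% called in either direction.

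Psmd2 read 9.35 and 9.23 on the curcumin arrays of cortex after 12 weeks, against 9.68 and 9.68 on the control arrays. The curcumin arrays are the lowest of all 16 for this gene, whose other 14 values lie between 9.54 and 9.77. The difference was -0.391 (SE 0.081, limma adjusted p = 0.0275). It was no longer called without any 1 of the 4 arrays compared (0.0529 and 0.172 without curcumin array 1 or 2, 0.170 and 0.123 without control array 1 or 2).

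Psmb4 read 9.46 and 9.56 on the curcumin arrays of cortex after 12 weeks, against 9.89 and 9.84 on the control arrays, with a difference of -0.350 (SE 0.081, limma adjusted p = 0.0430). After 6 weeks the cortical curcumin arrays read 9.38 and 9.56, and the control arrays 9.42 and 9.25. The curcumin arrays of 12 weeks thus lay in the range of the 6-week arrays, while the control arrays lay above it. The change of the curcumin effect between 12 and 6 weeks in cortex was -0.487 for Psmb4 (SE 0.115, adjusted p = 0.0656) and -0.457 for Psmd2 (SE 0.115, adjusted p = 0.0794), and neither passed the threshold. The call of Psmb4 at 12 weeks was lost in 10 of the 16 fits that leave out an array, with adjusted p from 0.0526 (without hippocampal control array 1 or 2 of 12 weeks) to 0.260 (without cortical control array 1 of 12 weeks). The lowest of these values among the 6-week arrays was 0.0674, for either hippocampal control array, with 0.0690 for either hippocampal curcumin array. Without the other cortical 12-week arrays it was 0.173 (curcumin array 1), 0.102 (curcumin array 2) and 0.132 (control array 2).

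No other member passed in cortex after 12 weeks. At an adjusted p under 0.1 limma called 5 members, 4 lower and 1 higher, with Psmd2 and Psmb4 among the lower. The share of all rows at this wider threshold is not given here, so this count has no background beside it. The ATPase Psmc4 read 8.90 and 8.97 on curcumin arrays, against 9.17 and 9.19 on control arrays, and was not called. A second row annotated to Psmc4 gave -0.323 (SE 0.098, limma adjusted p = 0.112) and was not called either. Psmb5, the chymotrypsin-like subunit, read 8.93 and 8.90 on curcumin arrays, against 9.24 and 9.11 on control arrays (difference -0.261, SE 0.065, limma adjusted p = 0.0550). Psmb6, the caspase-like subunit, lay the other way, with 7.54 and 7.72 on curcumin arrays and 7.34 and 7.39 on control arrays (0.265, SE 0.095, adjusted p = 0.186). Psma5, an alpha subunit, read 7.84 and 7.86 on curcumin arrays and 7.61 and 7.61 on control arrays (0.243, SE 0.062, adjusted p = 0.0602). The ATPase Psmc3 had a difference of 0.168 (SE 0.063, adjusted p = 0.207), and Psmb7, the trypsin-like subunit, read 9.20 and 9.26 on curcumin arrays and 9.19 and 9.19 on control arrays. The curcumin and control arrays did not overlap for 13 genes that were higher and 17 that were lower, which is 31.7% and 41.5% of the 41 beside 22.3% and 22.0% of all rows. So the cortical 12-week differences ran in both directions, and the median of the 41 genes was -0.020 beside 0.001 over all rows.

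Markers of other cells moved in the same comparison. All 8 astrocyte markers lay below 0 in cortex after 12 weeks of curcumin, with a median of -0.215 (array medians of 9.75 and 9.92 on curcumin arrays and 10.02 and 10.09 on control arrays). Of these Aldoc, a glycolytic enzyme of astrocytes, was called lower, with 11.29 and 11.38 on curcumin arrays, against 11.57 and 11.59 on control arrays (-0.246, SE 0.056, limma adjusted p = 0.0409). All 9 oligodendrocyte markers lay below 0 (median -0.159) and 6 of 7 endothelium markers (median -0.212), while 7 of 9 microglia markers lay above 0 (median 0.205). Their part in the values of the proteasome genes and of their partners in cortex after 12 weeks was not tested.

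The row shared by Psma3 and Psma3l and the row of Psma3l alone both lay lower on curcumin in cortex after 12 weeks, by -0.510 (SE 0.133, limma adjusted p = 0.0646) and -0.331 (SE 0.098, adjusted p = 0.103), without passing. The annotation does not separate these near-identical copies, so the rows may measure the same transcripts.

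In the other 3 comparisons of diet limma called 0 of the 41 genes. In hippocampus after 12 weeks 1 of all rows was called (0.00366%), and 6 of the 41 genes and 1396 of all rows had an unadjusted p under 0.05. Here 7 of the 41 differences were above 0 (17.1%), beside 49.8% over all rows, with a median of -0.062, and arrays did not overlap for 13 genes that were lower on curcumin (31.7%, beside 14.7% of all rows) and 3 that were higher (7.32%, beside 12.7%). The lowest were 2 alpha subunits. Psma4 read 8.80 and 8.78 on curcumin arrays and 8.94 and 9.16 on control arrays (difference -0.260, SE 0.080, adjusted p = 0.804), and Psma1 read 9.02 and 8.96 on curcumin arrays and 9.15 and 9.28 on control arrays (-0.230, SE 0.071, adjusted p = 0.811). The highest by moderated t was Psmd3, a subunit of the lid, with 8.23 and 8.21 on curcumin arrays and 8.04 and 8.05 on control arrays (0.171, SE 0.065, adjusted p = 0.923). Psmb7 had -0.156, Psma2 0.073 and Psmc3ip 0.095. Of 10 neuron markers, 1 was above 0 in the same comparison, with a median of -0.110, and the median of the 9 oligodendrocyte markers was 0.152, and their part in the values of the proteasome genes was not tested.

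In hippocampus after 6 weeks no row of the whole table was called (0%), and 1 of the 41 genes and 555 of all rows had an unadjusted p under 0.05. That gene was Psmc3, an ATPase of the base, with 8.49 and 8.56 on curcumin arrays and 8.71 and 8.73 on control arrays (difference -0.193, SE 0.063), and its unadjusted p of 0.0103 in limma did not pass the adjustment. Next to it by moderated t were the activator Psme2 (-0.132) and the lid subunit Psmd8 (-0.189), and at the other end Psmc3ip (0.132), Psma1 (0.113) and Psma2 (0.075). The median of the 41 genes was -0.008, beside -0.002 over all rows. In cortex after 6 weeks, where 0.106% of all rows were called, 5 of the 41 genes and 3293 of all rows had an unadjusted p under 0.05 and the median was 0.069, beside 0.002 over all rows. The highest moderated t belonged to Psma5 (0.181, SE 0.062, adjusted p = 0.265), Psmd1, a scaffold of the base (0.210, SE 0.080, adjusted p = 0.312), and Psma4 (0.206, SE 0.080, adjusted p = 0.321), and the lowest to Psma2, an alpha subunit (-0.142, SE 0.053, adjusted p = 0.302), followed by Psme2 (-0.122) and the alpha subunit Psma7 (-0.144). In the same comparison 9 of 10 neuron markers lay above 0, with a median of 0.291, and all 9 oligodendrocyte markers lay below 0, with a median of -0.805. All 9 microglia markers (median -0.344) and all 3 red blood cell markers (median -1.274) lay below 0 as well. The part of these cell type differences in the shift of the proteasome genes was not tested.

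The average of the 4 diet effects was called for 0 of the 41 genes and for 0.0146% of all rows, with 6 members and 2478 of all rows at an unadjusted p under 0.05 in limma. Its extremes were 0.086 for Psma5 (SE 0.031, adjusted p = 0.388) and -0.082 for Psmb5 (SE 0.033, adjusted p = 0.463) by moderated t, with 0.101 for Psmc3ip, 0.073 for Psmd3, -0.084 for the assembly chaperone Psmd5 and -0.092 for Psmd2 next. The change of the curcumin effect with duration in hippocampus and the tissue difference of the effect at 6 weeks were called for 0 of the 41 genes and 0% of all rows, and the tissue difference at 12 weeks for 0 of the 41 genes and 0.190% of all rows. At an unadjusted p under 0.05 limma gave 3, 3 and 7 members in these comparisons and 939, 1498 and 2891 of all rows. The change of the effect with duration in cortex was called for 0 of the 41 genes and for 1.47% of all rows, with 11 members and 4020 of all rows at an unadjusted p under 0.05.

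None of the extremes of these differences between effects, taken by moderated t, passed the threshold. For the change with duration in hippocampus they were Psma1 (-0.343), Psma4 (-0.251) and the ATPase Psmc6 (-0.212) against Psmd3 (0.233), Psmc3 (0.190) and Psme2 (0.078). In cortex the ATPase Psmc4 followed Psmb4 and Psmd2 at -0.333, and the other end held Psma2 (0.243), Psmb6 (0.319) and Psma7 (0.274). For hippocampus minus cortex in the effect at 12 weeks they were Psma5 (-0.342), Psmb6 (-0.347) and Psmb7 (-0.196) against Psmd2 (0.314), Psmb4 (0.292) and Psmc4 (0.231). At 6 weeks they were Psmc3 (-0.320), Psmd3 (-0.207) and Psmd1 (-0.217) against Psma2 (0.217), Psmc3ip (0.137) and Psma7 (0.142). The lowest limma adjusted p among these genes was 0.111 for Psmc4 in cortex, beside those of Psmb4 and Psmd2 above.

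**Figure D2:**
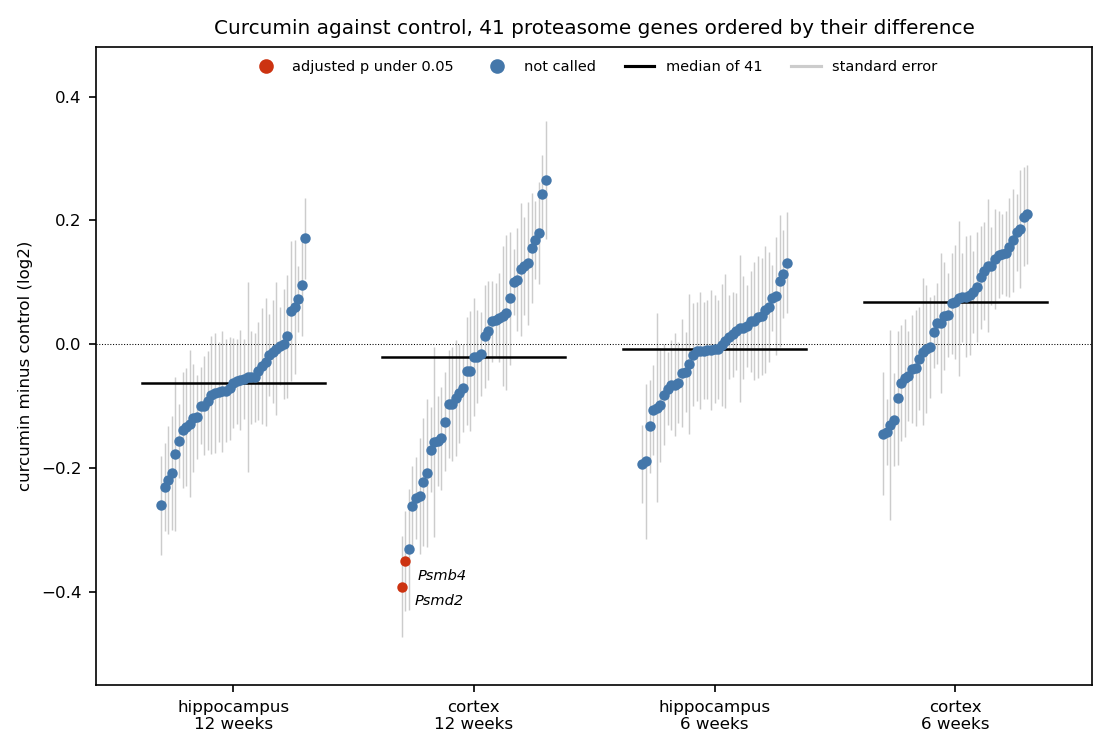
Points give curcumin minus control (log2, bars 1 SE) for each of the 41 genes, ordered by size within the 4 comparisons, with 2 arrays a group and the median of the 41 genes as a line. Psmd2 and Psmb4 in cortex after 12 weeks (-0.391 and -0.350) are the only points past the threshold, and the medians are -0.062, -0.020, -0.008 and 0.069 from left to right.

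The difference between 12 and 6 weeks reached further than that between diets, and the 2 widest values in each tissue were those of beta subunits, Psmb5 and Psmb4 in hippocampus and Psmb5 and Psmb7 in cortex. It was computed over both diets, with 4 arrays at each duration in a tissue. In hippocampus 10 of the 41 genes were called (24.4%, beside 10.8% of all rows), 4 higher (9.76%, beside 6.30%) and 6 lower (14.6%, beside 4.54%). In cortex 12 were called (29.3%, beside 9.27% of all rows), 4 higher (9.76%, beside 5.38%) and 8 lower (19.5%, beside 3.89%). The median of the 41 genes was -0.033 in hippocampus and 0.004 in cortex (0.011 and -0.008 over all rows), with called genes in both directions. The arrays of the 2 durations may also differ in when they were processed, which the sources do not give, and age, feeding time and any such batch cannot be told apart.

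Psmb5 differed most. On hippocampal arrays it read 9.14 and 9.14 (curcumin) and 9.18 and 9.21 (control) after 12 weeks, against 8.44 and 8.49 (curcumin) and 8.49 and 8.53 (control) after 6 weeks. On cortical arrays it read 8.93 and 8.90 (curcumin) and 9.24 and 9.11 (control) after 12 weeks, against 8.44 and 8.58 (curcumin) and 8.52 and 8.43 (control) after 6 weeks. In both tissues every 12-week array lay above every 6-week array. The difference was 0.678 in hippocampus (SE 0.046, limma adjusted p = 4.05e-05), which is 1.600-fold, and 0.555 in cortex (SE 0.046, adjusted p = 1.89e-04), which is 1.469-fold. Psmb5 in hippocampus was the only member past the 1.5-fold line in this comparison, which 0.578% of all rows passed in hippocampus and 0.706% in cortex.

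Psmb6, the caspase-like subunit, was higher after 12 weeks as well. On hippocampal arrays it read 7.51 and 7.52 (curcumin) and 7.46 and 7.73 (control) after 12 weeks, against 7.13 and 7.22 (curcumin) and 7.15 and 7.11 (control) after 6 weeks. On cortical arrays it read 7.54 and 7.72 (curcumin) and 7.34 and 7.39 (control) after 12 weeks, against 7.02 and 7.17 (curcumin) and 7.21 and 7.09 (control) after 6 weeks. The durations did not overlap in either tissue, and the differences were 0.403 (SE 0.067, limma adjusted p = 0.00374) in hippocampus and 0.372 (SE 0.067, adjusted p = 0.00669) in cortex. A second row annotated to Psmb6 was also called higher, by 0.309 (SE 0.073, adjusted p = 0.0205) and 0.336 (SE 0.073, adjusted p = 0.0158).

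Psmb7, the trypsin-like subunit, went the other way. On hippocampal arrays it read 9.29 and 9.32 (curcumin) and 9.42 and 9.50 (control) after 12 weeks, against 9.60 and 9.65 (curcumin) and 9.69 and 9.71 (control) after 6 weeks. On cortical arrays it read 9.20 and 9.26 (curcumin) and 9.19 and 9.19 (control) after 12 weeks, against 9.61 and 9.72 (curcumin) and 9.69 and 9.60 (control) after 6 weeks. All 12-week values lay below all 6-week values of the same tissue. The differences were -0.285 (SE 0.042, limma adjusted p = 0.00199) in hippocampus and -0.444 (SE 0.042, adjusted p = 2.79e-04) in cortex. Of the 3 catalytic subunits 2 were thus higher and 1 was lower after 12 weeks, in both tissues. The calls of Psmb5 and Psmb7 held, in both tissues, in all 16 fits that leave out an array and in all other fits tried.

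Psmb4, which holds no catalytic site, was higher after 12 weeks in hippocampus, with 9.89 and 10.03 (curcumin) and 10 and 10.04 (control), against 9.42 and 9.42 (curcumin) and 9.47 and 9.53 (control) after 6 weeks. The difference was 0.533 (SE 0.057, limma adjusted p = 4.88e-04), and the durations did not overlap. In cortex the 12-week values were 9.46 and 9.56 (curcumin) and 9.89 and 9.84 (control), against 9.38 and 9.56 (curcumin) and 9.42 and 9.25 (control) after 6 weeks, with a difference of 0.286 (SE 0.057, adjusted p = 0.0113). The cortical curcumin arrays of the 2 durations overlapped: the difference was 0.04 on curcumin arrays alone (adjusted p = 0.904) and 0.53 on control arrays alone. Psmb1, another non-catalytic beta subunit, was higher after 12 weeks in hippocampus (0.286, SE 0.058, adjusted p = 0.0102), a call lost without curcumin array 1 of 6 weeks (0.0523), and had a difference of 0.159 in cortex (SE 0.058, adjusted p = 0.123). The remaining beta subunits Psmb2, Psmb3 and Psmb11 lay above 0 in both tissues, by 0.043 to 0.158, and were not called.

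**Figure D3:**
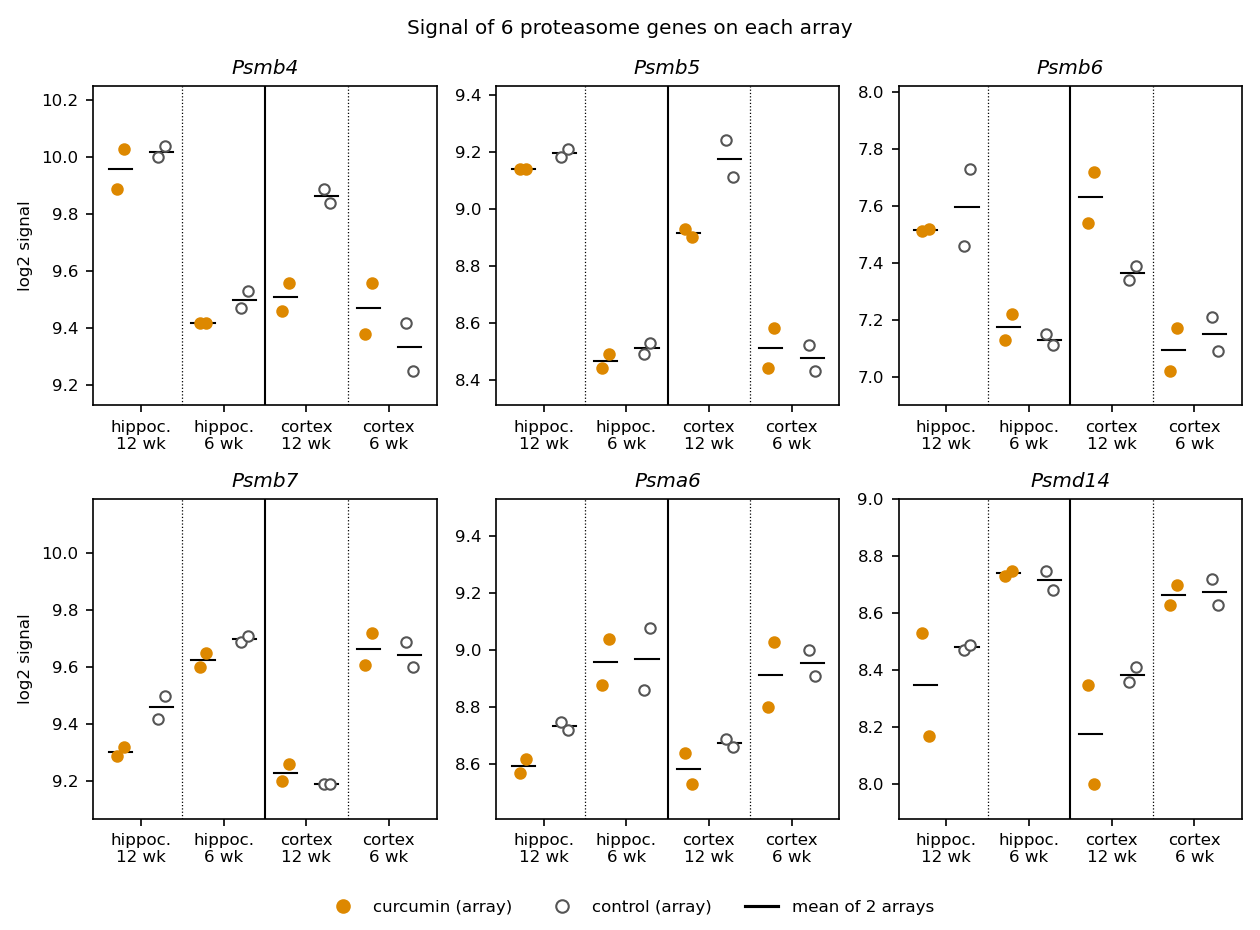
Points give the log2 signal on each array for 6 genes, curcumin (filled) left of control (open) within each tissue and duration, with a line at the mean of 2 arrays, and each panel spans the same log2 range. Psmb5 and Psmb6 are higher and Psmb7, Psma6 and Psmd14 lower on the 12-week arrays of both tissues, while the cortical curcumin arrays of Psmb4 stay near the 6-week level.

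Among the alpha subunits Psma6 and Psma2 were lower after 12 weeks in both tissues. Psma6 read 8.57 and 8.62 (curcumin) and 8.75 and 8.72 (control) on hippocampal arrays of 12 weeks, against 8.88 and 9.04 (curcumin) and 8.86 and 9.08 (control) after 6 weeks (difference -0.303, SE 0.066, limma adjusted p = 0.0142). In cortex it read 8.64 and 8.53 (curcumin) and 8.69 and 8.66 (control) after 12 weeks, against 8.80 and 9.03 (curcumin) and 9.0 and 8.91 (control) after 6 weeks (-0.300, SE 0.066, adjusted p = 0.0170). No 12-week array of Psma6 reached a 6-week array in either tissue. A second, dim row annotated to Psma6 gave -0.035 and -0.019 and was not called, and without hippocampal array 2 of the 6-week curcumin or control group the hippocampal adjusted p was 0.0600 or 0.0610. In cortex the call was lost without curcumin array 2 of 6 weeks (0.0563), curcumin array 2 of 12 weeks (0.0542) and control arrays 1 and 2 of 12 weeks (0.0516 and 0.0572).

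Psma2 was lower by 0.156 in hippocampus (log2 difference -0.156, SE 0.037, limma adjusted p = 0.0215) and by 0.182 in cortex (-0.182, SE 0.037, adjusted p = 0.0125, and 0.0529 without control array 1 of 12 weeks). The hippocampal call was lost in 6 of the 16 fits that leave out an array, with adjusted p from 0.0531 to 0.0825. Psma7, an alpha subunit, lay as low without passing in either tissue (-0.236, SE 0.070, adjusted p = 0.0538, and -0.246, SE 0.070, adjusted p = 0.0503). The difference had opposite signs in the tissues for 7 members, and of these Psma5 was the only one called in either tissue, with -0.149 in hippocampus (SE 0.044, adjusted p = 0.0529) and 0.163 in cortex (SE 0.044, adjusted p = 0.0414), a cortical call lost in 12 of 16 fits (0.0538 to 0.115). The tissue difference of its duration effect was -0.312 (SE 0.062) and did not pass (adjusted p = 0.191).

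In the cap, the called genes were lower after 12 weeks and no gene of it was called higher. Psmd14, the deubiquitinase of the lid that removes ubiquitin chains before degradation, read 8.53 and 8.17 (curcumin) and 8.47 and 8.49 (control) in hippocampus after 12 weeks, against 8.73 and 8.75 (curcumin) and 8.75 and 8.68 (control) after 6 weeks. The difference was -0.312 (SE 0.084, limma adjusted p = 0.0373) and was lost in 9 of 16 fits without an array (0.0534 to 0.122). In cortex it read 8.35 and 8.0 (curcumin) and 8.36 and 8.41 (control) after 12 weeks, against 8.63 and 8.70 (curcumin) and 8.72 and 8.63 (control) after 6 weeks (-0.389, SE 0.084, adjusted p = 0.0159). That call was lost without curcumin array 2 of 6 weeks (0.0506) or control array 1 of 12 weeks (0.0592). The curcumin array 2 of 12 weeks was the lowest array in each tissue.

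The ATPase Psmc3 was lower by smaller steps, -0.172 in hippocampus (SE 0.044, limma adjusted p = 0.0302, lost in 6 of 16 fits, 0.0633 to 0.107) and -0.158 in cortex (SE 0.044, adjusted p = 0.0483, lost in 15 of 16 fits, 0.0519 to 0.139). Psmd12, a lid subunit, was called in cortex (-0.247, SE 0.065, adjusted p = 0.0383, lost in 11 of 16 fits, 0.0515 to 0.131) and had -0.165 in hippocampus (SE 0.065, adjusted p = 0.142). The other 5 ATPases lay between -0.115 and 0.087 in the 2 tissues and were not called. The second Psmc4 row gave 0.168 in hippocampus (SE 0.070, limma adjusted p = 0.161) and -0.134 in cortex (SE 0.070, adjusted p = 0.283). The 3 base subunits without ATPase activity, Psmd1, Psmd2 and Psmd4, lay between -0.173 and 0.061, and the chaperones Psmd5, Psmd9 and Psmd10 between -0.177 and 0.094, again with 0 called.

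Of the activators, which open the core without the cap, Psme2 was lower in cortex (-0.196, SE 0.053, limma adjusted p = 0.0415). This call was lost in 11 of 16 fits (0.0520 to 0.131), and the second Psme2 row gave -0.141 (SE 0.052, adjusted p = 0.121). Its partner Psme1 read 8.42 and 8.64 (curcumin) and 8.59 and 8.57 (control) on hippocampal arrays of 12 weeks, against 8.10 and 8.32 (curcumin) and 8.17 and 8.46 (control) after 6 weeks, with a difference of 0.295 whose SE, 0.108, was the widest of the 41 genes (adjusted p = 0.114). Psme3, the nuclear activator, and Psme4 differed by -0.049 to 0.087. A second row annotated to Psme3 gave 0.025 in hippocampus (SE 0.108, limma adjusted p = 0.933) and 0.244 in cortex (SE 0.108, adjusted p = 0.201). Psmc3ip, which is no part of the particle, was lower after 12 weeks in hippocampus (-0.411, SE 0.058, adjusted p = 0.00165) and in cortex (-0.207, SE 0.058, adjusted p = 0.0473), the cortical call being lost in 13 of 16 fits (0.0579 to 0.125). Its row is dim, with values of 5.73 to 6.32 in hippocampus and 5.82 to 6.24 in cortex, below the lowest array median of 6.35.

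Hippocampus and cortex come from the same rats, so a likeness of the tissues is a description and no independent repeat. In both tissues 9 genes were called: Psma2, Psma6, Psmb4, Psmb5, Psmb6, Psmb7, Psmc3, Psmc3ip and Psmd14. All 9 had the same direction in both tissues, as did 1345 of the 1350 rows called in both. The genes called in both tissues are 9 of the 10 hippocampal calls and 75.0% of the cortical calls, beside 45.6% and 53.3% over all rows. Of the 41 genes 34 had the same sign in both tissues (82.9%, beside 67.0% of all rows), and the differences of the 41 genes in hippocampus and cortex had a Pearson correlation of 0.87 (0.63 over all rows), a description over genes that share arrays and are not independent. The tissue difference of the duration effect, a comparison added after the data had been seen, was called for 0 of the 41 genes and for 0.00366% of all rows. At an unadjusted p under 0.05, limma gave 5 members and 2292 of all rows there. Its highest moderated t was that of Psmb4 (0.247, SE 0.081, adjusted p = 0.417), followed by Psmb7 (0.159) and Psmd2 (0.183), and after Psma5 the lowest were Psmc3ip (-0.204) and Psme3 (-0.135).

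Markers of other cells also differed between the durations. In hippocampus all 9 oligodendrocyte markers (0.043 to 0.615), 8 of 9 microglia markers (median 0.143) and 5 of 8 astrocyte markers (median 0.138) lay above 0 at 12 weeks. Of these 2 microglia and 2 astrocyte markers were called higher. Tmem119, a microglia marker, read 7.48 and 7.51 (curcumin) and 7.41 and 7.73 (control) after 12 weeks, against 7.01 and 6.99 (curcumin) and 7.10 and 7.10 (control) after 6 weeks (0.478, SE 0.068, limma adjusted p = 0.00173). The astrocyte markers called were Gja1 (0.244, SE 0.056, adjusted p = 0.0180) and Aldoc (0.196, SE 0.040, adjusted p = 0.00987). In cortex 9 of 10 neuron markers lay above 0 (median 0.137, 2 called higher and 1 lower), and 7 of 9 oligodendrocyte markers (median -0.356) and all 7 endothelium markers (median -0.170) lay below 0. Their part in the duration differences of the proteasome genes was not tested.

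Choroid plexus markers were lower after 12 weeks in hippocampus by a median of -1.255, through the 2 arrays named above. Without these arrays 6 of the 41 genes were called there, 4 higher (Psmb1, Psmb4, Psmb5 and Psmb6) and 2 lower (Psmb7 and Psmc3ip), and all 6 were among the 10. On control arrays alone 6 members were called in hippocampus, and on curcumin arrays alone 4. In cortex, both 6-week control arrays carried the lowest neuron and the highest oligodendrocyte medians of their tissue and duration. Leaving them out left 3 called, Psmb5, Psmb6 and Psmb7. That fit set 12-week arrays of both diets against 6-week curcumin arrays only, so diet and duration are mixed in it. In the fits that leave out an array, the count lay between 6 (without hippocampal curcumin array 1 or 2 of 6 weeks) and 11 in hippocampus and between 5 (without cortical curcumin array 2 of 6 weeks or control array 1 of 12 weeks) and 11 in cortex. The counts of this paragraph are given without the share of all rows called in the same fits, so they describe the members only.

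**Figure D4:**
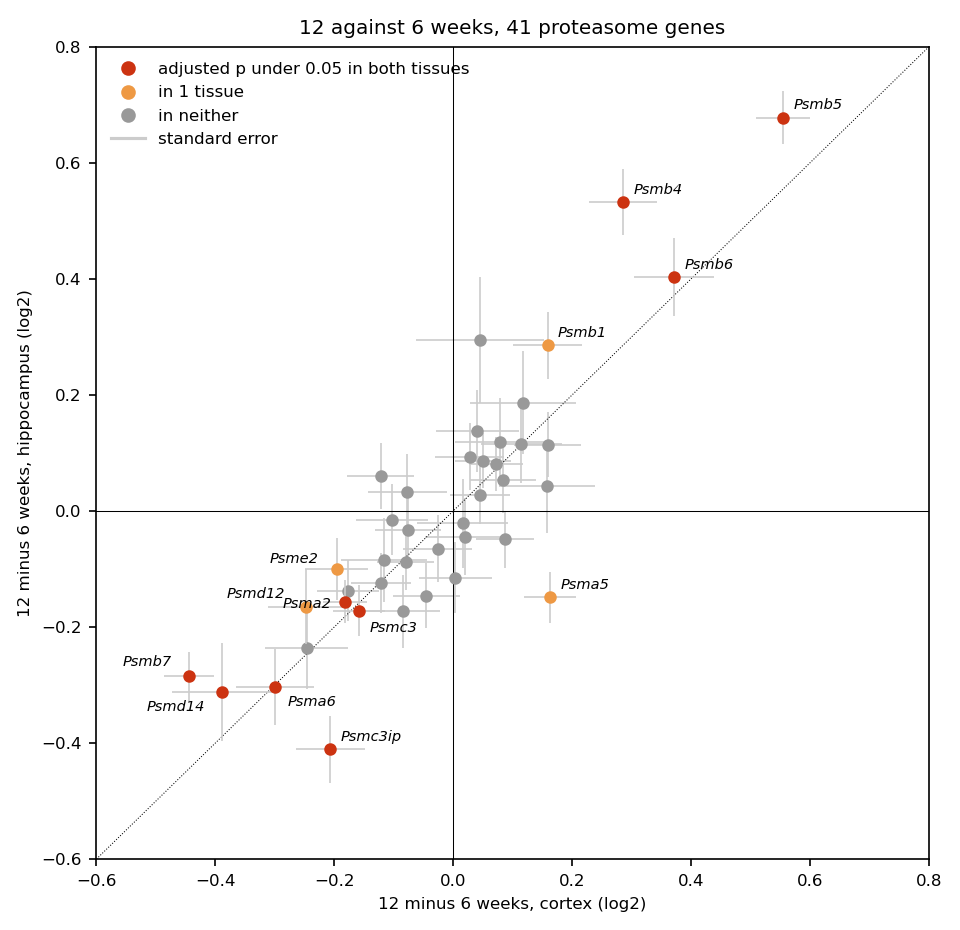
Each point is a gene, with the difference 12 minus 6 weeks in cortex on the horizontal and in hippocampus on the vertical axis (log2, bars 1 SE, 4 arrays at each duration in a tissue). Red points passed the test in both tissues, from Psmb5 (0.555 and 0.678) at the upper right to Psmb7 (-0.444 and -0.285) at the lower left, and the dotted line marks equal differences.

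Hippocampus and cortex differed little in proteasome expression. Over the 8 arrays of each tissue 5 of the 41 genes were higher in hippocampus (12.2%, beside 6.05% of all rows) and 0 were lower (beside 3.63%), by at most 0.183. They were the alpha subunits Psma1, Psma2 and Psma4, the beta subunit Psmb4 and the lid subunit Psmd6. The median of the 41 genes was 0.060 and 30 of them lay above 0 (73.2%, beside 13670 of the 27342 rows). Arrays overlapped between the tissues for each of the 41 genes, where 1.13% of all rows were higher and 0.475% lower without overlap.

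Psmd6 ranged from 8.98 to 9.22 with a difference in the mean of 0.161 (SE 0.034, limma adjusted p = 0.0119), and hippocampus was higher in each of the 4 pairs of groups with the same diet and duration, by 0.11 to 0.21. Its cortical values ranged from 8.83 to 9.06. Psmb4 differed by 0.183 (SE 0.041, adjusted p = 0.0151), but by 0.45 in curcumin-fed rats of 12 weeks and by -0.05 in those of 6 weeks. Psma4 (0.158, SE 0.040, adjusted p = 0.0285), Psma1 (0.131, SE 0.036, adjusted p = 0.0402) and Psma2 (0.097, SE 0.026, adjusted p = 0.0400) were smaller differences, lost in 10, 12 and 14 of the 16 fits that leave out an array. Psmb1 came next (0.142, SE 0.041, adjusted p = 0.0545). At the other end were Psmb11 (-0.107, SE 0.056, adjusted p = 0.323), the activator Psme4 (-0.053, SE 0.054, adjusted p = 0.693) and Psme3ip1 (-0.035). All 9 oligodendrocyte markers (median 0.235) and 7 of 8 astrocyte markers (median 0.151, 4 called higher) lay above 0 in the same comparison, all 7 endothelium markers lay below 0 (median -0.144), and their part was not tested. Choroid plexus markers had a median difference of 0.599, and without the 2 hippocampal arrays where they were high, 0 of the 41 genes were called by limma, with adjusted p from 0.0970 (Psmd6) to 0.233 (Psma1) for these 5 genes. In the fits without 1 array the count lay between 2 and 5, and it was 2 without hippocampal curcumin or control array 2 of 6 weeks, without hippocampal curcumin array 1 of 12 weeks and without cortical control array 1 or 2 of 12 weeks.

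**Figure D5:**
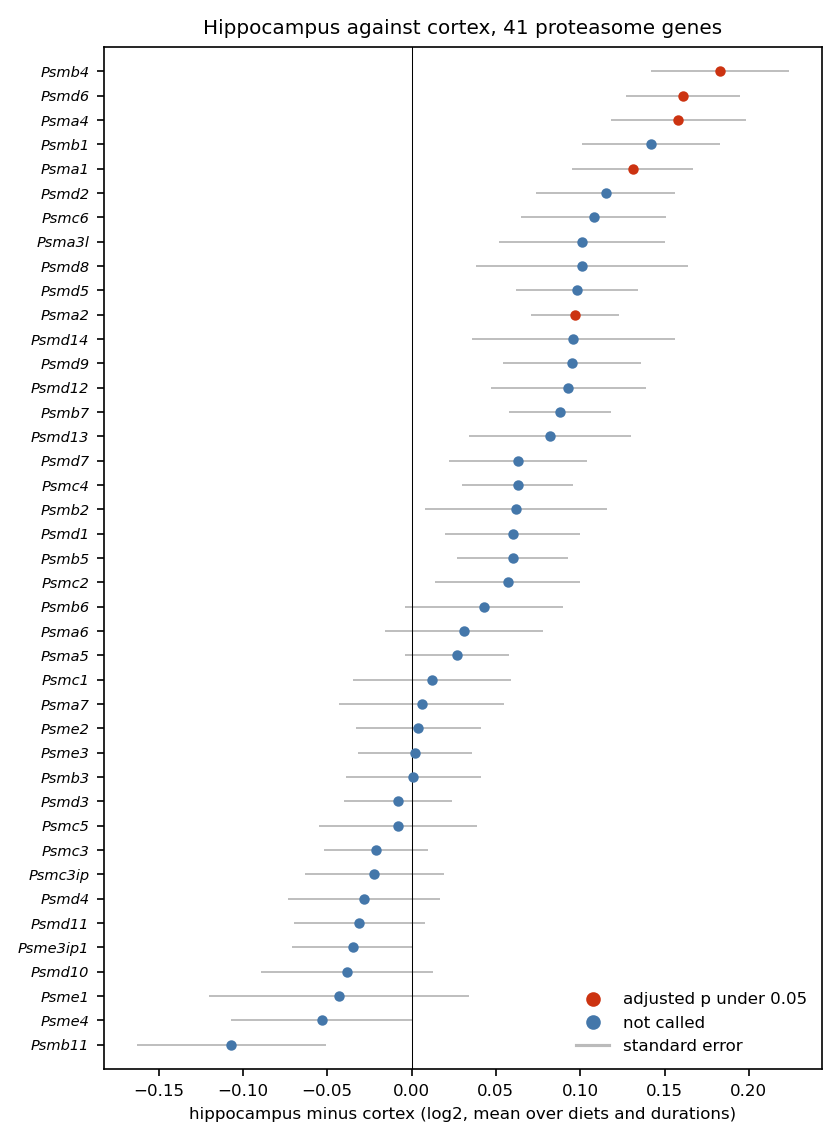
Points give hippocampus minus cortex (log2, bars 1 SE, 8 arrays a tissue) for the 41 genes, averaged over diets and durations. Psmb4 is highest at 0.183 and Psmb11 lowest at -0.107, and the 5 red points passed the test.

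The immunoproteasome subunits, which replace the catalytic subunits, did not pass the test in any of the 13 comparisons. Psmb8 lay between 5.81 and 6.05 on the 16 arrays, Psmb9 between 5.42 and 6.13 and Psmb10 between 6.73 and 6.99. Between 12 and 6 weeks their differences were -0.029 to 0.077, while the constitutive counterparts Psmb5, Psmb7 and Psmb6 were called in both tissues. Psmb8 and Psmb9 lay below the array medians of 6.35 to 6.44, so these dim rows are not an equal measure beside brighter rows. The difference between curcumin and control in cortex after 12 weeks was 0.310 for Psmb9 (SE 0.145, limma adjusted p = 0.353), which has its highest value, 6.13, on curcumin array 2.

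A list of 29 genes that work with the particle (assembly factors, other cap subunits, deubiquitinases, ubiquitin shuttles, ubiquitin and its activating enzyme, and transcription factors) was read beside the 41. In cortex after 12 weeks 3 of the 29 were higher on curcumin and 2 lower, beside 1.64% and 1.59% of all rows. Adrm1, a ubiquitin receptor of the cap, read 8.83 and 8.88 on curcumin arrays, against 8.47 and 8.45 on control arrays (difference 0.401, SE 0.063, limma adjusted p = 0.00830). Sem1, the smallest lid subunit, read 8.02 and 7.88 on curcumin arrays and 7.37 and 7.51 on control arrays (0.505, SE 0.101, adjusted p = 0.0241). The shuttle factor Ubqln2 was higher by 0.407 (SE 0.086, adjusted p = 0.0303). Ufd1, a cofactor of the segregase that extracts ubiquitinated proteins, was lower by 0.369 (difference -0.369, SE 0.061, adjusted p = 0.0103), and Zfand2a, a stress-induced proteasome-binding protein, by 0.343 (-0.343, SE 0.069, adjusted p = 0.0242). Each of these calls was lost without 2 to 8 of the 16 arrays, among them cortical control array 1 of 12 weeks for all 5 genes, where adjusted p was 0.0811 for Adrm1, 0.200 for Sem1, 0.211 for Ubqln2, 0.120 for Ufd1 and 0.108 for Zfand2a. The cap in cortex after 12 weeks of curcumin thus had Adrm1 and Sem1 called higher and Psmd2 called lower.

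Between 12 and 6 weeks 1 of the 29 was called higher and 1 lower in hippocampus (beside 6.30% and 4.54% of all rows), and 3 were called lower in cortex (beside 3.89%). Adrm1 was lower (-0.194, SE 0.044, limma adjusted p = 0.0176) and Zfand2a higher (0.235, SE 0.049, adjusted p = 0.0110) in hippocampus. Without the 2 arrays with high choroid plexus markers their adjusted p was 0.0926 and 0.126, and the call of Adrm1 was also lost without any of 5 single arrays (0.0501 to 0.0805). In cortex the assembly factors Pomp (-0.267, SE 0.059, adjusted p = 0.0169) and Psmg1 (-0.254, SE 0.072, adjusted p = 0.0487), which build the core, and Ufd1 (-0.317, SE 0.043, adjusted p = 0.00156) were lower. Pomp, the maturation factor of the core, read 8.11 and 8.25 (curcumin) and 8.09 and 8.09 (control) after 12 weeks, against 8.30 and 8.42 (curcumin) and 8.53 and 8.36 (control) after 6 weeks. The call of Psmg1 was lost in 14 of 16 fits without an array and that of Pomp in 4. Usp14, a deubiquitinase of the cap, was higher in hippocampus than in cortex (0.235, SE 0.045, adjusted p = 0.00633, beside 6.05% of all rows called higher), a call that held in all fits without an array. Nfe2l1 lay between 9.51 and 9.86 on the 16 arrays and was not called in any comparison, and Nfe2l2 lay between 6.96 and 7.69, also without a call.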

How the data were processed

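RNA of hippocampus and cortex pools was hybridised to Affymetrix arrays. The log2 values were deposited by the authors as 1 table of 16 arrays, made with RMA in Affymetrix Expression Console (versions not given). The paper names an exon array, while the annotation supplied is that of a gene array. Of the 27342 rows, 15097 have 1 gene symbol, 323 several and 11922 none, and 0 value columns were left unmapped. Arrays give no read depth, and their number limits the precision.

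All rows were fitted in limma 3.58.1 (R 4.3.3, statmod 1.5.0) with 8 group means and 8 residual degrees of freedom (prior 3.12), with Benjamini-Hochberg adjustment across the rows of each of 13 comparisons. The last, the tissue difference of the duration effect, was added after the data had been seen. Genes named are those past the threshold, the 3 highest and 3 lowest by moderated t in each comparison, the catalytic subunits and activators, the immunoproteasome genes and called partners. The members and lists were chosen with earlier results of these data known. Alternatives covered dim rows, normalization, the arrays fitted, variance and weights, the row kept for a gene, thresholds, replicate blocks and leaving out each array. Added after seeing the data were fits without 2 hippocampal arrays with high choroid plexus markers, on curcumin arrays only, and without both cortical 6-week control arrays. Scripts were tested on simulated data, and figures were drawn in matplotlib 3.10.9 (Python 3.11.15).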

Additional observations from a re-analysis of the deposited data

Results flagged for a closer look

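For 1 gene of the partner list, Adrm1, the curcumin effect in cortex differed between durations by a test of the difference itself. The change of the effect, 12 minus 6 weeks, was 0.453 (SE 0.089, limma adjusted p = 0.0366). Adrm1 read 8.83 and 8.88 on curcumin arrays and 8.47 and 8.45 on control arrays after 12 weeks, and 8.78 and 8.80 on curcumin arrays and 8.85 and 8.83 on control arrays after 6 weeks. Of the 8 cortical arrays, the 2 control arrays of 12 weeks are the low ones. The call was lost in 10 of the 16 fits that leave out an array, among them that without cortical control array 1 of 12 weeks. It was also lost in the fit of the cortical arrays alone (limma adjusted p = 0.172). Groups of 2 arrays allow no check for single outlying arrays.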

How the results depend on the processing

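No called difference turned its direction. Medians near 0 did: that of 12 against 6 weeks in cortex (0.004) lay below 0 in 11 of 29 alternatives, that of curcumin in hippocampus after 6 weeks (-0.008) was 0.014 without hippocampal curcumin array 2 of 6 weeks, and that of the tissue difference of the duration effect (0.026) was -0.006 without cortical curcumin array 2 of 6 weeks. Apart from fits that leave out an array, 22 of 161 counts of called genes moved by more than 1.5 times and 8 of 135 medians by more than the spread between replicates, and the cause was not tested. Counts under alternatives, here and above, are given without the share of all rows called in the same fit, and describe the members only. For curcumin in cortex after 12 weeks (2 called) the count was 1 without the 25% of rows with the lowest mean, 1 with a replicate block, 5 at an adjusted p under 0.1, and 0 on the 8 arrays of the tissue, on the 4 arrays compared, by the fold rule and without the 2 arrays with high choroid plexus markers. For hippocampus against cortex (5 called) it was 3 without dim rows, 3 after quantile normalization over all arrays, 3 with a variance trend and robust estimation, 2 on control arrays, and 0 by the fold rule and without those 2 arrays. For 12 against 6 weeks in hippocampus (10 called) it was 1 by the fold rule, 6 on control arrays, 4 on curcumin arrays and 6 without those 2 arrays, and the median was -0.075 on curcumin arrays, against -0.033 on all. In cortex (12 called) it was 3 on the arrays of the tissue, 0 by the fold rule, 4 on curcumin arrays and 3 without both 6-week control arrays, with medians of 0.059 on control arrays, -0.072 on curcumin arrays and -0.046 without those controls, against 0.004 on all. The change of the curcumin effect with duration in cortex had 2 genes at an adjusted p under 0.1, and medians of -0.040 and -0.041 after quantile normalization over all arrays and within each tissue, against -0.089. The tissue difference of the effect at 6 weeks had medians of -0.015 and -0.016 there, against -0.054.

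Leaving out 1 array at a time gave counts of 0 to 3 for curcumin in cortex after 12 weeks, 2 to 5 for the tissues, 6 to 11 and 5 to 11 for 12 against 6 weeks in hippocampus and cortex, and 0 to 1 for the change of the curcumin effect in cortex (1 without control array 1 of 6 weeks). Medians lay between 0.012 and 0.105 for curcumin in cortex after 6 weeks, between -0.103 and -0.044 in hippocampus after 12 weeks, between -0.055 and -0.005 and between -0.050 and 0.008 for 12 against 6 weeks in hippocampus and cortex, between -0.107 and -0.019 and between -0.162 and -0.029 for the change of the effect in hippocampus and cortex, and between -0.127 and -0.017 and between -0.088 and -0.036 for its tissue difference at 6 and 12 weeks.

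The sources do not say whether a number marks the same 3 rats in both tissues. Deviations of arrays of the same number correlated at -0.15, 0.12, 0.15 and 0.16 between tissues and at -0.43 to 0.04 between diets over all rows, so not every pair was above 0.1 and the numbers were not taken as pairs. Over the 41 genes the correlations were -0.13, 0.17, 0.56 and 0.21 between tissues and -0.35 to 0.35 between diets. The value of 0.56 belongs to the curcumin arrays of 12 weeks. With the number as a random replicate block over both tissues (consensus correlation 0.039) the counts were 2, 5, 10 and 13 for curcumin in cortex after 12 weeks, the tissues and 12 against 6 weeks in hippocampus and cortex, and 1 call was lost (Psmg1 in cortex, adjusted p = 0.0502). With the number as a fixed replicate block 4 of 41 calls were lost: Psmb4 in cortex after 12 weeks of curcumin (adjusted p = 0.0522), Psma2 between tissues (0.0518), and Psmc3 (0.0637) and Psmg1 (0.0551) between durations in cortex.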
